A study of Mus musculus with 6 samples.

Results

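Malat1, Neat1, Gm42418, Cmss1 and Cdk8 were followed as shares of the unique molecular identifiers (UMIs, counts of distinct captured molecules) of each cell. These 5 genes of the 32285 in the deposited table were selected by name, with earlier results of these data known. Malat1 and Neat1 are nuclear noncoding RNAs, and Gm42418, Cmss1 and Cdk8 had been seen to move together. Their shares by cell and cluster, and their likeness to Gm42418, are therefore given as a description with no test. Diet was compared over libraries. Together they took 104823 of 1155624 UMIs, or 9.07%. Gm42418 had the most UMIs of any gene, with 65661 (5.68%). Malat1 ranked 2 with 26958 (2.33%), Cmss1 9 with 6944 (0.601%), Cdk8 24 with 4364 (0.378%) and Neat1 165 with 896 (0.0775%).

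The cells came from sciatic nerves of C57BL6/J mice aged 23 weeks, fed either standard diet (SD) or high fat diet (HFD). Both groups had been enriched with anti-O4 magnetic beads, which bind a surface antigen of the Schwann lineage, the glia that ensheathe peripheral axons. The 364 cells comprised 201 from 3 SD libraries and 163 from 2 HFD libraries. HFD replicate 3 is not analysed here. The deposited tables sort the cells into 5 clusters, numbered 0 to 4 and named Macrophages, mySC, SCP, repairSC and nmSC by the authors.

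Libraries held 37744 to 349450 UMIs, and their median cells held 330.5 to 6608. No cell barcode was shared between libraries. The labelled cell type, Schwann cells, was not what all clusters carried. Macrophage markers took 6.29% of UMIs in cluster 0, and myelinating Schwann markers 5.29% in cluster 2 and 2.02% in cluster 1. Cluster 4 held 1.24% nonmyelinating Schwann and 4.01% fibroblast markers. In cluster 3, 36 of 45 barcodes, from SD replicates 2 and 3 and HFD replicate 2, shared the same 9-base ending and held 128 to 531 UMIs each. Across all clusters 7 cells drew at least 5% of their UMIs from neutrophil, haemoglobin or mast cell genes, 5 of them in HFD replicate 1.

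Malat1 is a long noncoding RNA that is retained in nuclear speckles, the bodies where splicing factors gather. Neat1 is the scaffold of paraspeckles, another kind of nuclear body. RNA that stays in the nucleus is lost from a cytoplasmic fragment and kept in a free nucleus, so such transcripts are often read in droplet data beside mitochondrial and cytoplasmic RNA. Cmss1 is the mouse homolog of a yeast protein of the small ribosomal subunit pathway, and Cdk8 encodes the kinase of the Mediator complex, which links transcription factors to RNA polymerase II. Gm42418 is annotated as a noncoding RNA on a locus of ribosomal RNA sequence.

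In GRCm38 (mm10, GENCODE vM21), Malat1 lies at chr19:5795690-5802672 and Neat1 at chr19:5824708-5845478, both on the minus strand. Gm42418 lies at chr17:39846958-39848788 on the plus strand, and RefSeq (GRCm38) gives its name as a synonym of the pseudogene Rn18s-rs5. Cmss1 spans chr16:57302000-57606864 on the minus strand and Cdk8 chr5:146231230-146302874 on the plus strand. Most of both coding genes is intron. The Cmss1-201 transcript has 1150 bases in a gene of 304865, and Cdk8-201 has 2973 in a gene of 71645. The noncoding RNA AY036118, at chr17:39847113-39848035 on the minus strand, lies wholly within Gm42418. All 923 of its bases are the reverse complement of a stretch of Gm42418. The pair below is 59 bases of AY036118 and the same DNA on the Gm42418 strand (chr17:39847222-39847280), printed to show that both rows read opposite strands of the same locus, with the most A-rich 15 bases of AY036118 and their complement in capitals.
AY036118: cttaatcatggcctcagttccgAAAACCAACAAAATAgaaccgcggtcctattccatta
Gm42418: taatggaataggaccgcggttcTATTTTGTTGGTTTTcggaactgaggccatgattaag

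The libraries were made from poly-A RNA, per the labels' protocols, so the longest run of A inside each annotated transcript is of interest. Malat1 carries a run of 12 A, starting at base 6674 of 6983. Of 141767 annotated mouse transcripts 4.07% hold a run that long. Cdk8-201 has 9 A near its 3′ end (9.81% of transcripts hold such a run), and Cdk8-208, a transcript with a retained intron, has 15 (1.95%). The longest run was 7 in Neat1 (22.3%), 6 in Gm42418 (37.7%) and 4 in Cmss1-201. The stretches below show these places, in capitals the A run or, for Gm42418 and Cmss1, the 15 bases with the most A. Where reads began was not tested, and introns were not searched here.
Malat1, chr19:5795964-5796023, minus strand: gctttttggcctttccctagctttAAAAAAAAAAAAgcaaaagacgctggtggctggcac
Cdk8-208, chr5:146259688-146259750, plus strand: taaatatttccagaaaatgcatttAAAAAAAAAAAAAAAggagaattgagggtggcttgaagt
Cdk8-201, chr5:146302801-146302829, plus strand: tattctgaatAAAAAAAAAttgaacattg
Cmss1-201, chr16:57317941-57317969, minus strand: tttcctgACACAAACAAAGGAAcccaaag
Gm42418, chr17:39847359-39847417, plus strand: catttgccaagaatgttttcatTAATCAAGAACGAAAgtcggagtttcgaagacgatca

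No stretch of 20 bases of Gm42418 occurred, on either strand, in any annotated transcript of Cmss1 (3 transcripts), Cdk8 (9), Malat1 (4) or Neat1 (4). The transcripts of Lars2, Camk1d, Gphn and Gm19951, described below, shared none either.

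Cmss1 and Cdk8 followed Gm42418 from cell to cell. Over the 182 cells with at least 1000 UMIs, the Cmss1 share had a Spearman rho of 0.738 with the Gm42418 share, and the Cdk8 share 0.670. Cmss1 and Cdk8 correlated with each other at 0.748. The relation was also present when each cell was set against the mean of its own library and cluster (162 cells), with 0.674 for Cmss1 and 0.634 for Cdk8. The median gene was then at 0.126. With every cell thinned to 1000 UMIs, which gives all cells the same depth, rho was 0.642 and 0.524. Cells of a library share depth and free RNA, so these values carry no p. Malat1 had a rho of -0.186 with Gm42418 and Neat1 one of -0.0804, against a median gene at -0.0895.

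The strength of the relation differed among clusters. For Cmss1, rho was 0.793 in cluster 0 (75 cells), 0.799 in cluster 1 (29 cells) and 0.95 in cluster 4 (16 cells). For Cdk8 it was 0.703, 0.866 and 0.895 in the same clusters. In cluster 2, the deep myelin-rich cells, it was 0.322 for Cmss1 and 0.344 for Cdk8 over 57 cells. The Gm42418 share there ran from 2.82% to 8.41% between the 10th and 90th percentile of the 60 cells, against 4.68% to 34.0% in cluster 1. Within single libraries rho lay between 0.476 (SD replicate 3, 8 cells) and 0.795 (HFD replicate 1, 43 cells) for Cmss1, and between 0.452 and 0.696 for Cdk8.

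**Figure D1:**
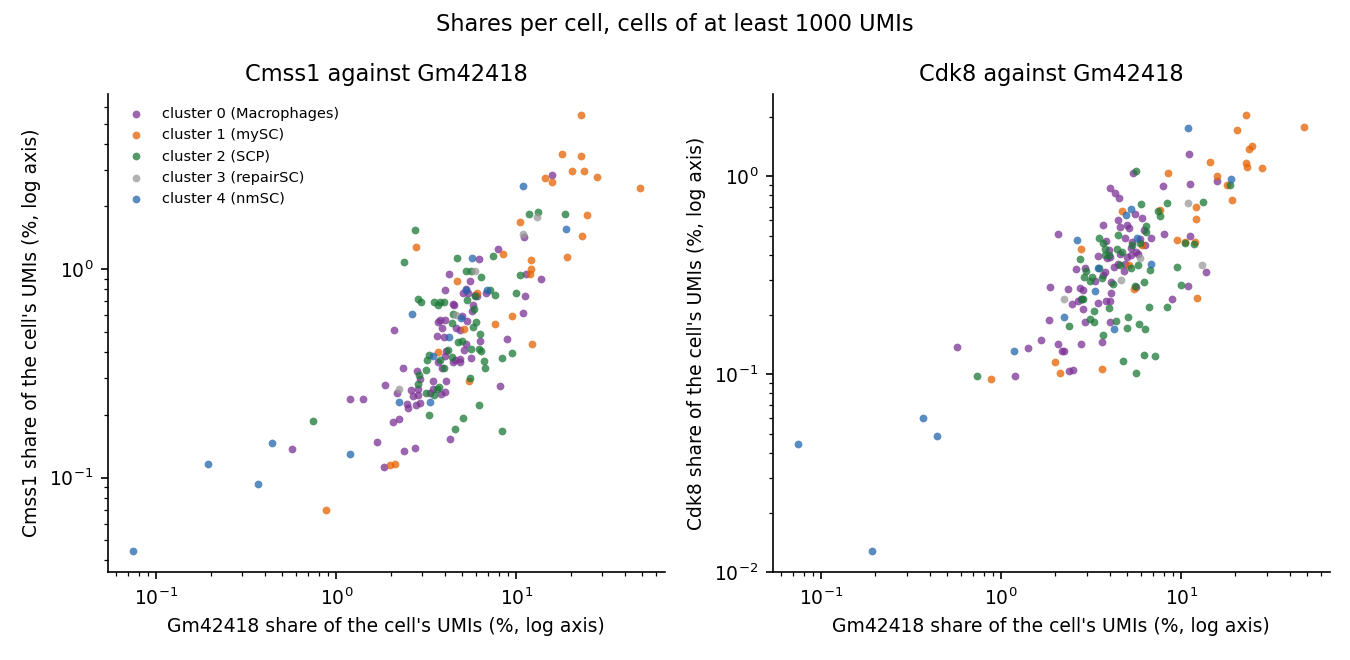
Share of the cell's UMIs (percent, log axes) of Cmss1 (left) and Cdk8 (right) against Gm42418 in the 182 cells of at least 1000 UMIs, with 0.5 added to each count; colours are the deposited clusters. Both rise with Gm42418 (rho 0.738 and 0.670), and cells of cluster 1 reach the highest shares.

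Among 2089 genes detected in at least 25% of these cells, Cmss1 ranked 1 and Cdk8 ranked 3 by their correlation with Gm42418. Gm19951, a noncoding RNA, ranked 2 at 0.695. Camk1d, a calcium-dependent kinase gene, stood at 0.658. Gphn, which encodes the scaffold protein gephyrin, stood at 0.648, and Lars2, the mitochondrial leucyl-tRNA synthetase, at 0.629. AY036118 came next with 0.377 and Cadm4, an adhesion protein of Schwann cells, followed with 0.307. The median gene had -0.0895 and the 95th percentile was 0.108. The first 6 genes thus lay between 0.629 and 0.738, and no other gene was above 0.377. The same 7 genes took the first 7 ranks after removal of the library and cluster means, with AY036118 at 0.427 and Pacs2 in rank 8 at 0.347. The median gene there was at 0.126 and the 95th percentile at 0.238, and Malat1 ranked 2071 at -0.151.

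**Figure D2:**
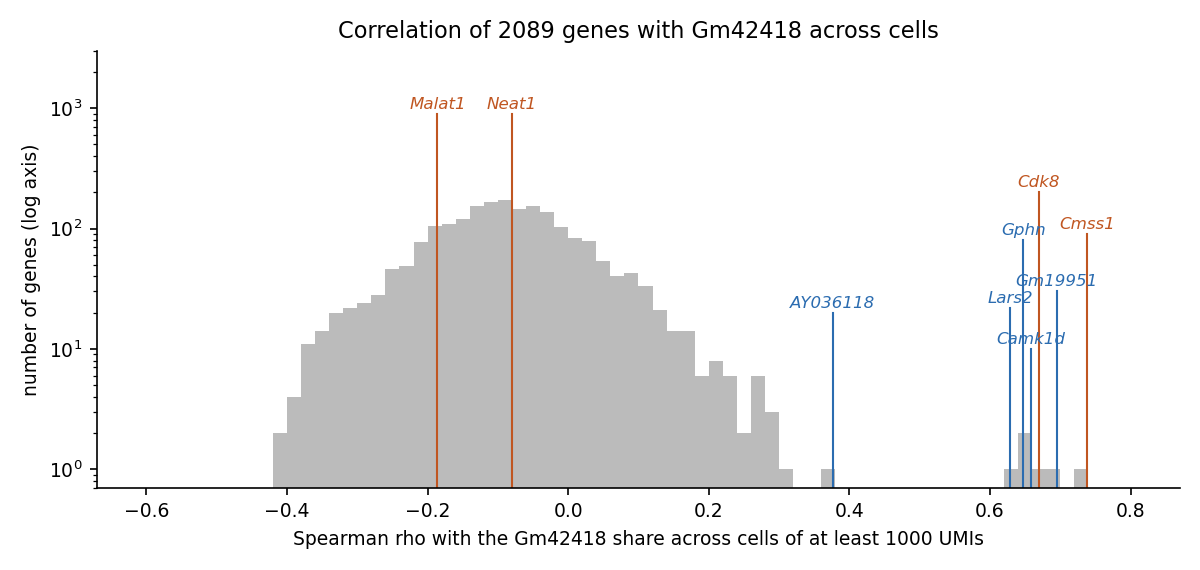
Number of genes (log axis) by Spearman rho of their share with the Gm42418 share over 182 cells, for 2089 genes; orange lines mark Malat1, Neat1, Cmss1 and Cdk8, and blue lines the other genes most like Gm42418. Cmss1 (0.738), Gm19951, Cdk8, Camk1d, Gphn and Lars2 (0.629) stand to the right of all other genes, and AY036118 (0.377) lies between.

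Summed counts showed the same genes. Over the 23 sums per library and cluster with at least 3000 UMIs, on a log2(CPM + 100) scale (CPM, counts scaled to a common library total), Pearson r with Gm42418 was 0.974 for Cdk8, 0.964 for Lars2, 0.962 for Cmss1, 0.937 for Camk1d, 0.847 for AY036118, 0.813 for Gm19951 and 0.792 for Gphn. The ubiquitin gene Ubb was next at 0.774. Malat1 ranked 19 there with 0.635, so its sign differed from that across cells, and Neat1 had 0.471. Among the sums was cluster 3 of SD replicate 3 (5607 UMIs), which held 0 UMIs of each of the 5 genes. The weight of this sum in these values of r was not tested. The median over 1838 genes was 0.191 and the 95th percentile 0.485. The 5 further genes that followed Gm42418 had 1797 (Gm19951) to 4139 (Camk1d) UMIs. Neighbours of these loci had few counts. Filip1l, a coding gene that overlaps Cmss1 on the opposite strand, had 88 UMIs in all. Gm26917, the noncoding RNA next to Gm42418 on the same strand, had 109 UMIs and a rho of 0.00274.

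The ratio of Cmss1 to Gm42418 varied less between clusters of a library than that of Malat1 to Gm42418. For every 100 Gm42418 UMIs there were 12.5 Cmss1 UMIs in SD replicate 1 (95% interval 11.9 to 13.0), 13.2 in SD replicate 2 (12.5 to 13.9) and 9.51 in SD replicate 3 (8.30 to 10.8). HFD replicate 1 had 8.78 (8.35 to 9.23) and HFD replicate 2 had 8.81 (8.32 to 9.33). The intervals are exact and cover counting error only. The lowest and highest cluster of a library differed by 1.28-fold in SD replicate 1 and by at most 1.93-fold, in HFD replicate 1. Some of these differences exceeded counting error. HFD replicate 1 had 7.37 (6.70 to 8.08) in cluster 1 and 14.2 (11.3 to 17.6) in cluster 2, and SD replicate 2 had 16.3 (14.99 to 17.7) in cluster 1 and 10.1 (8.98 to 11.3) in cluster 2, so the order of these clusters was not shared. For Malat1 per Gm42418 UMI the same range ran from 4.81-fold in HFD replicate 2 to 54.9-fold in SD replicate 2. The 3 lower ratios of Cmss1 came from SD replicate 3 and both HFD libraries.

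Cdk8 stood at 7.12, 6.81 and 7.23 UMIs per 100 Gm42418 UMIs in SD replicates 1 to 3, and at 6.74 and 5.70 in the HFD replicates. Its clusters differed by 1.40-fold in SD replicate 1 and by 5.09-fold in SD replicate 2, where cluster 3 had 9 Cdk8 and 33 Gm42418 UMIs. Summed over libraries, Cdk8 stood at 7.56 (7.22 to 7.91) in cluster 0, 5.57 (5.23 to 5.92) in cluster 1, 6.12 in cluster 2, 5.68 in cluster 3 and 8.73 (7.71 to 9.84) in cluster 4. The interval of cluster 1 did not meet those of clusters 0 and 4, so the ratio was not the same everywhere beyond counting error. In single cells with at least 50 Gm42418 UMIs (170 cells), the median was 9.81 for Cmss1 and 7.41 for Cdk8, with 10th to 90th percentiles of 5.34 to 17.8 and 3.57 to 11.9.

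Gm42418 was spread unevenly over the clusters. Its mean share over libraries with at least 3 cells of a cluster was 14.9% ± 8.68 (SD between libraries, n = 5) in cluster 1. It was 4.68% ± 0.523 in cluster 0 and 5.50% ± 0.832 in cluster 2 (n = 5 each), 3.61% ± 1.62 in cluster 4 (n = 4) and 2.17% ± 2.15 in cluster 3 (n = 3). The 3 libraries behind the cluster 3 mean were those that held the 36 barcodes of the shared ending. Pooled over the other 9 cells of cluster 3, Gm42418 took 7.07%. In cluster 1 the SD libraries held 12.4%, 18.5% and 28.1%, and the HFD libraries 9.51% and 6.01%, so that every SD value lay above both HFD values, as in 22.6% of 656 genes of that cluster. HFD replicate 1 had 8 cells there, of which 3 were led by neutrophil or haemoglobin genes. Without such cells it held 18.15% and HFD replicate 2 held 6.39%, SD replicate 1 held 12.91%, and the diets overlapped. The 18.15% rests on 5 cells, and 1 of them, with 15445 UMIs, held 3569 of their 5564 Gm42418 UMIs. In cluster 0 the SD libraries held 4.23%, 5.11% and 5.17% and the HFD libraries 4.87% and 4.03%, and the diets overlapped. Cmss1 was at 1.58% ± 1.01 in cluster 1, 0.614% ± 0.0952 in cluster 2, 0.481% ± 0.263 in cluster 4, 0.466% ± 0.110 in cluster 0 and 0.209% ± 0.197 in cluster 3. Without the shared-ending barcodes Cmss1 took a pooled 0.964% in cluster 3. Cdk8 was at 0.725% ± 0.335 in cluster 1, 0.374% ± 0.108 in cluster 2, 0.376% ± 0.0968 in cluster 0, 0.317% ± 0.128 in cluster 4 and 0.461% ± 0.626 in cluster 3, where the highest library, SD replicate 2, had 9 UMIs. Between clusters 0 and 2, neither Gm42418 nor Cdk8 differed beyond the spread between libraries.

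Cells at the top of the Gm42418 range were few and mostly shallow. In 37 cells it made up 20% or more of UMIs, 35 of them in cluster 1 and 2 in cluster 0. Their median depth was 608 UMIs. The highest share was 48.3%, in a cell of SD replicate 3 with 1323 UMIs. Cmss1 took 2.99% and Cdk8 1.40% of the UMIs of these 37 cells, and Camk1d, Lars2, Gphn and Gm19951 took 1.68%, 1.87%, 1.66% and 1.27%. AY036118 took 0.371%, against 0.197% in all cells. A single cell of HFD replicate 1 with 15445 UMIs and 23.1% Gm42418 held 39.2% of the UMIs of the 37 and 491 of their 527 Malat1 UMIs. Without it Cmss1 took 3.99%, Cdk8 1.59%, Camk1d 1.96%, Lars2 1.43%, Gphn 1.95% and Gm19951 1.20%. Malat1 was at 0 in 22 of the 37. The SD libraries held 13 of 80, 16 of 81 and 2 of 40 such cells, and the HFD libraries 1 of 57 and 5 of 106. These are 16.2%, 19.8%, 5.00%, 1.75% and 4.72% of cells, with exact 95% intervals of 8.95 to 26.2, 11.7 to 30.1, 0.611 to 16.9, 0.0444 to 9.39 and 1.55 to 10.7. The intervals of SD replicates 1 and 3 overlapped those of both HFD libraries, and that of SD replicate 2 met neither.

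Some barcodes held almost none of the most abundant transcript. Gm42418 was at 0 in 35 cells, 34 of them in cluster 3, and 33 of these carried the shared barcode ending. The 36 barcodes with that ending held 4 Gm42418 UMIs among 9961 (0.0402%). They held no Malat1 UMI, and 3 counts would have made 0.0301%. Of the other 9 cells of cluster 3, 7 had Malat1. Pooled over these 9 cells Malat1 took 788 of 38808 UMIs (2.03%) and Neat1 54 (0.139%), against a pooled 1.62% and 0.111% over all 45 barcodes of the cluster.

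Malat1 was highest in the myelin-rich deep cells of cluster 2. Its share there was 4.67% ± 1.00 (SD between libraries, n = 5), and 3.78% ± 0.620 in cluster 4 (n = 4), 1.20% ± 0.475 in cluster 0 and 1.02% ± 0.454 in cluster 1 (n = 5 each). In cluster 2 the SD libraries held 5.80%, 5.00% and 3.14%, and the HFD libraries 5.08% and 4.34%. Each of these was above every value of clusters 0 and 1, the highest of which was 1.58%. Clusters 2 and 4 overlapped, as did clusters 0 and 1. Cluster 2 held 45.1% of all Malat1 UMIs in 60 of 364 cells, and all 60 had the transcript. Thinned to 200 UMIs a cell, Malat1 was present in 100% of cells of cluster 2, 91.7% of cluster 4, 61.5% of cluster 0, 42.0% of cluster 1 and 17.1% of cluster 3. Thinning left out 13, 4, 2 and 10 cells under 200 UMIs in clusters 0 to 3 and none in cluster 4. Over all cells, before thinning, the shares were 100%, 91.7%, 67.8%, 54.3% and 15.6% in the same order.

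Neat1 was sparse, with 896 UMIs in 159 cells. Its share was 0.114% ± 0.0304 in cluster 2, 0.0628% ± 0.0287 in cluster 0 and 0.0421% ± 0.0246 in cluster 1 (n = 5 each), and 0.0325% ± 0.0244 in cluster 4 (n = 4). In cluster 4 the 4 libraries held 0.0313%, 0.0584%, 0% and 0.0405%, where 0 counts in HFD replicate 1 allow up to 0.0122%. Counted by cells, the order was another. Thinned to 200 UMIs, Neat1 was present in 22.4% of cells of cluster 2, 16.7% of cluster 4, 7.69% of cluster 0, 5.68% of cluster 1 and 2.86% of cluster 3, at a mean of 0.276 UMIs or fewer per cell. The value of 0.0723% in SD replicate 3 of cluster 2 rests on 15 UMIs. Across the 182 deeper cells Neat1 followed Malat1 with a rho of 0.484. Within library and cluster it was 0.317, which ranked Neat1 2 among 2089 genes, behind Pid1 at 0.407. The median gene there was at -0.287.

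**Figure D3:**
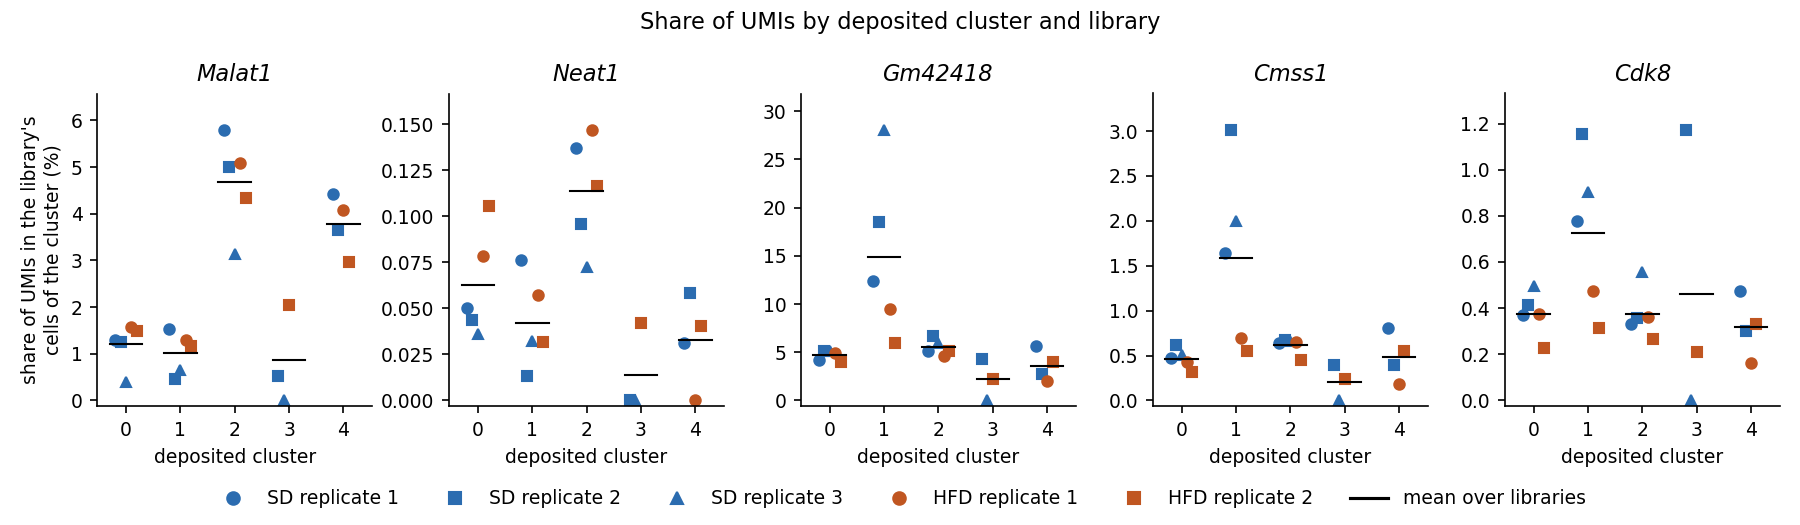
Share of UMIs (percent) of each transcript in every library and deposited cluster with at least 3 cells; blue points are SD and orange points HFD libraries, shapes are replicates and black bars the mean over libraries. Malat1 is highest in clusters 2 and 4, Gm42418 and Cmss1 spread most in cluster 1, where Gm42418 runs from 6.01% to 28.1%, and Cdk8 runs from 0% to 1.17% in cluster 3.

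The genes most like Malat1 over the 23 sums per library and cluster were Son (r = 0.820), which encodes a nuclear speckle protein, mt-Atp6 (0.769) and mt-Nd4l (0.752) of the mitochondrial genome, and Thoc2 (0.741), a subunit of the THO mRNA export complex. mt-Cytb (0.724), Tmem50a (0.717), Ubb (0.715) and the splicing regulator Mbnl2 (0.712) followed. The median over 1838 genes was 0.283. These sums include cluster 3 of SD replicate 3, with 0 Malat1 UMIs among 5607, where 18 of 19 barcodes carried the shared ending. Its weight in the order of these genes was not tested. Across the 182 cells other genes led, with Arhgap24 at a rho of 0.679, Sorcs1 at 0.655 and Celf2 at 0.631, and the median gene was at 0.110. Within library and cluster mt-Co3 (0.309) and mt-Co2 (0.308) came after Pid1 and Neat1.

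The Malat1 share was higher in deeper cells, to a degree that differed among clusters. Over all 364 cells its share had a rho of 0.522 with UMIs per cell. Within library and cluster (350 cells) rho was 0.225, and among cells of at least 1000 UMIs 0.178. The pooled share was 0.508% in the 58 cells under 300 UMIs, 0.830% in the 124 cells from 300 up to 1000, 1.36% in the 45 cells from 1000 up to 3000 and 2.53% in the 137 cells of 3000 or more. Gm42418 took 7.36%, 12.3%, 10.2% and 4.86% of UMIs in the same bins. Cell types differ between these bins, and cluster 2 had 48 of its 60 cells in the deepest. Within clusters 0 and 1 the rise was not steady. The pooled Malat1 share over the same bins was 0.653%, 0.900%, 0.0587% and 1.53% in cluster 0. In cluster 1 it was 0.7125%, 0.560%, 0.313% and 1.54%. The Spearman correlation with depth was 0.440 in cluster 0, 0.207 in cluster 1, 0.0711 in cluster 2, 0.546 in cluster 3 and 0.263 in cluster 4.

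Malat1 and mitochondrial RNA moved together. The rho of the Malat1 share with the percent of UMIs from mitochondrial genes was 0.375 over all cells and 0.208 within library and cluster. It was 0.245 in SD replicate 1 and 0.751 in SD replicate 3, where 18 of 40 cells carried the shared ending. In clusters 2 and 4, where Malat1 was highest, it was 0.0960 and 0.104. No cell was above 4.97% mitochondrial. The 10 cells with the highest Malat1 share, 7.17% to 19.8%, had a median of 3.13% mitochondrial and 4786 UMIs, and 7 of them lay in cluster 2. Among the next 10, at 5.70% to 7.02% Malat1, 3 cells had 0.116%, 0.404% and 0.667% mitochondrial. Ribosomal protein mRNAs, which are translated in the cytoplasm, took 3.94% of UMIs in cluster 2, 18.1% in cluster 0, 8.50% in cluster 1 and 9.36% in cluster 4. Whether cells of high Malat1 were intact cells or nuclei was not tested.

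Malat1 was at 0 in 128 of 364 cells (35.2%, exact 95% interval 30.3 to 40.3). The interval leaves out the spread between libraries. Malat1 was present in 78.75%, 58.0% and 35.0% of cells in SD replicates 1 to 3, and in 82.5% and 61.3% in HFD replicates 1 and 2. The 128 cells at 0 had a median of 417 UMIs, against 3816 in the other cells. They made up 46 of 143 cells in cluster 0, 42 of 92 in cluster 1, 0 of 60 in cluster 2, 38 of 45 in cluster 3 and 2 of 24 in cluster 4. Not all of them were shallow. Of the 182 cells with at least 1000 UMIs, 28 had no Malat1 UMI, 16 in cluster 0, 10 in cluster 1 and 2 in cluster 4. They held 73424 UMIs, but since they were chosen for having no Malat1, their pooled 0 sets no limit. In single cells, 3 counts would have made 0.0120% in the deepest and 0.299% in the shallowest. Gm42418 took 6.13% of the UMIs of these 28 cells, or 8.83% without the deepest barcode, and 5.17% of those of the other 154.

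**Figure D4:**
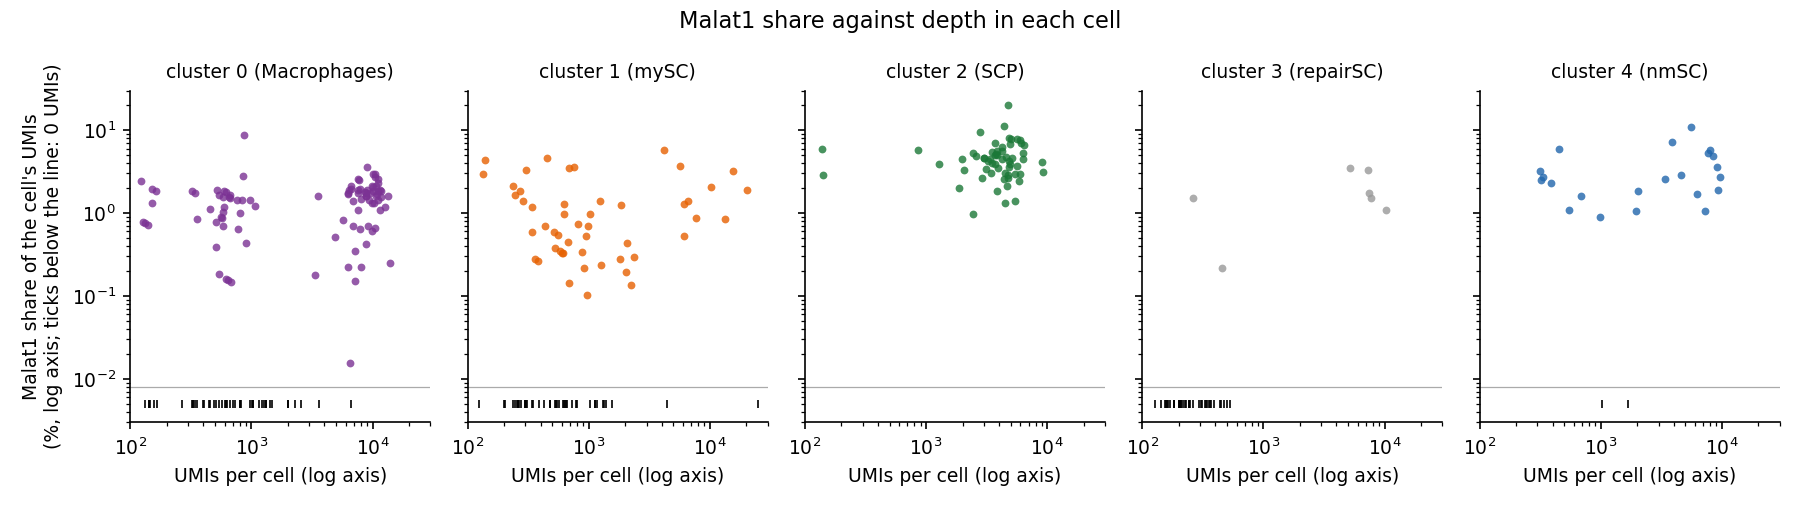
Malat1 share of each cell's UMIs (percent, log axis) against UMIs per cell (log axis), by deposited cluster; ticks below the grey line are cells with 0 Malat1 UMIs. All 60 cells of cluster 2 have the transcript, 38 of 45 barcodes of cluster 3 lack it, and in cluster 0 the cells from 1000 up to 3000 UMIs lack it in 14 of 15 cases.

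In cluster 0 the cells at 0 were not the shallowest. Malat1 was at 0 in 7 of 14 cells under 300 UMIs, 23 of 54 from 300 up to 1000, 14 of 15 from 1000 up to 3000 and 2 of 60 with 3000 or more. The 16 cells of at least 1000 UMIs without Malat1 came from 4 libraries. Ribosomal protein mRNAs took a median of 34.2% of their UMIs (6.72% to 60.5%), against 16.3% (3.25% to 30.7%) in the 59 such cells with Malat1. The median was higher in the cells without Malat1 in each of the 4 libraries, on few cells. It was 47.1% (5 cells) against 19.6% (16) in SD replicate 1 and 29.0% (2) against 17.3% (6) in SD replicate 2. It was 22.8% (5) against 14.1% (22) in HFD replicate 1 and 27.5% (4) against 17.4% (14) in HFD replicate 2. Neat1 was present in 1 of the 16 cells and in 51 of the 59. The cells without Malat1 were shallower, with a median of 1381 UMIs against 8886, and less mitochondrial, with a median of 1.77% against 3.01%. Macrophage markers took 3.46% and 6.54% of UMIs. The deepest of the 16 had 6608 UMIs, 60.5% ribosomal protein mRNA and 0% mitochondrial. This contrast was chosen after its values were seen and was not tested.

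In cluster 1, 10 of 29 cells of at least 1000 UMIs had no Malat1, and none of these had Neat1. Their median mitochondrial share was 0.229%, against 1.94% in the other 19, and their median Gm42418 share 20.4% against 11.9%. Pooled over UMIs the order was the reverse, at 6.72% against 9.36%, and without the deepest barcode of the 10 it was 16.8%. That barcode, of HFD replicate 1, held 24932 UMIs, 92.9% of them from haemoglobin and other erythroid genes. Mouse red cells lose their nucleus as they mature. It held no Malat1, 218 Gm42418 UMIs (0.874%), 17 Cmss1 and 23 Cdk8 UMIs, and 3 counts would have made 0.0120%. That limit is a share of all its UMIs, most of them erythroid, and rests on 1 barcode. The 5 cells led by neutrophil genes held Malat1 at 0.537% to 1.52%. Why this erythroid barcode held none was not tested.

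The diet comparison asked whether the shares differed between SD and HFD libraries. Malat1 took 2.77%, 2.63% and 1.86% of UMIs in SD replicates 1 to 3, and 1.84% and 2.38% in HFD replicates 1 and 2. The diets overlapped. The mean was 2.42% ± 0.489 (n = 3) on SD and 2.11% ± 0.387 (n = 2) on HFD (exact permutation p = 0.5, two-sided). Project numbers in the folder names put SD replicates 1 and 2 and HFD replicate 1 in a first project. The second held only SD replicate 3 and HFD replicate 2. HFD minus SD of Malat1 was -0.867 percentage points in the first project and 0.520 in the second, so the direction was not stable. It kept its sign for Gm42418 (-1.08 and -2.20), Cmss1 (-0.3655 and -0.241), Cdk8 (-0.0871 and -0.228) and Neat1 (0.0115 and 0.0395).

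Gm42418 took 6.08%, 7.24% and 6.74% on SD and 5.58% and 4.54% on HFD. Every SD library was above both HFD libraries, with means of 6.69% ± 0.585 and 5.06% ± 0.733. Cmss1 took 0.758%, 0.953% and 0.641% on SD and 0.490% and 0.400% on HFD, and again the diets did not overlap. Cdk8 took 0.433%, 0.493% and 0.488% on SD and 0.376% and 0.259% on HFD, with no overlap either. Neat1 took 0.0769%, 0.0576% and 0.0503% on SD and 0.0787% and 0.0898% on HFD, so that both HFD libraries were above all SD libraries, SD replicate 1 by little. Exact permutation p-values were 0.1 for Gm42418 and Cdk8 and 0.2 for Cmss1 and Neat1, two-sided and not adjusted for the 5 genes compared. With 3 libraries against 2 the smallest possible p is 0.1, so no threshold of 0.05 could be met. Of 5510 genes tested over all cells, 12% were lower in both HFD libraries than in all SD libraries and 11% higher, beside 3 and 1 of the 5 genes. Without the 7 cells led by neutrophil, haemoglobin or mast cell genes, Gm42418 in HFD replicate 1 was 6.003%, just under the 6.10% of SD replicate 1. Neat1 in HFD replicate 1 was then 0.0749%, below the 0.0771% of SD replicate 1, and the diets overlapped. The HFD libraries had median cells of 6608 and 818.5 UMIs, against 2577, 594 and 330.5 on SD.

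Summed levels of cell type markers differed between the libraries as well. Of 14 myelinating Schwann markers 13 had a negative fold change on HFD, with a median of -1.33 on the log2 scale. Of the 14, 8 were lower without overlap, as were 12% of all 5510 genes. Together the 14 markers took 1.84%, 2.44% and 4.09% of UMIs in SD replicates 1 to 3 and 0.346% and 1.65% in the HFD replicates. Of 15 macrophage markers 14 had a positive fold change, with a median of 0.73, and they took 3.804%, 2.31% and 1.696% on SD and 4.31% and 2.87% on HFD, where the diets overlapped. Neither list had a member past the threshold in edgeR. Neutrophil markers took at most 0.00265% on SD, where 7 of 8 were at 0 in each library, and 1.23% and 0.635% on HFD, where all 8 were present. Of the 5 tested, 4 passed, all higher on HFD, against 0.0907% of all genes. Cluster 1, the richest in Gm42418, made up 31.2%, 44.4% and 17.5% of cells on SD and 14.04% and 15.1% on HFD. The part of depth and cell makeup in the differences of the 5 genes was not tested. Fewer cells of a type and less RNA per cell cannot be told apart in these sums.

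**Figure D5:**
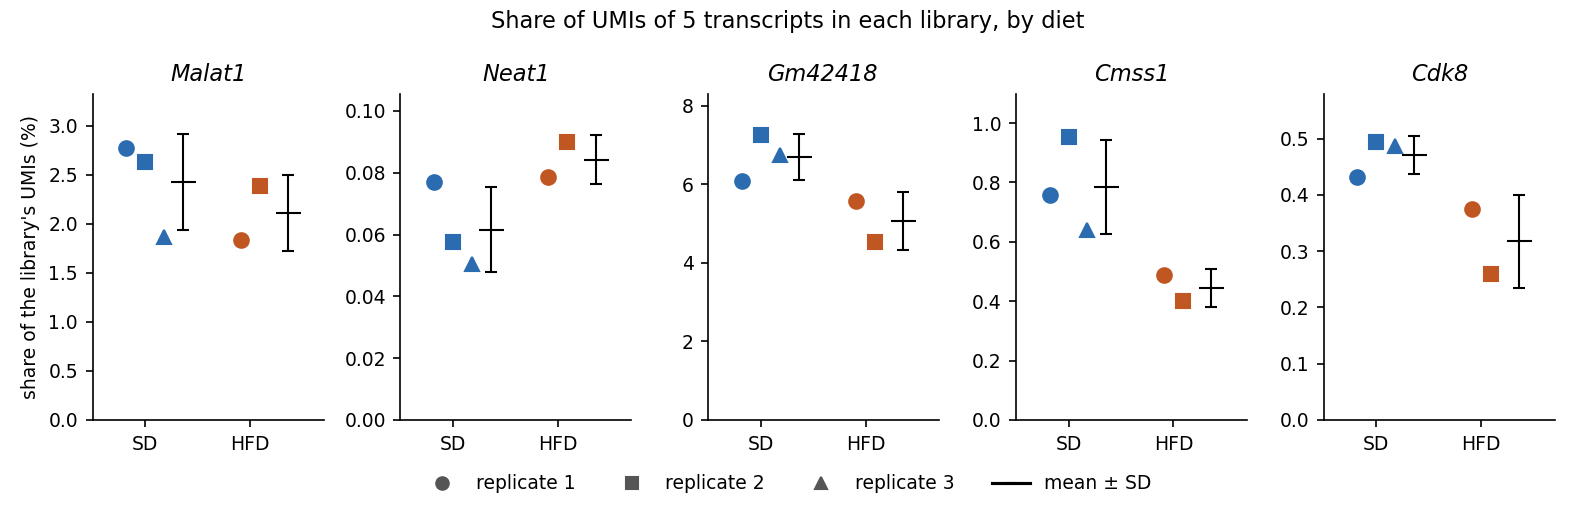
Share of each library's UMIs (percent) of the 5 transcripts, with SD libraries in blue, HFD libraries in orange, shapes for replicates and the mean ± SD beside them. Gm42418, Cmss1 and Cdk8 are lower in both HFD libraries than in all SD libraries, Neat1 is higher (its diets overlap without the 7 cells led by neutrophil, haemoglobin or mast cell genes), and Malat1 overlaps.

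None of the 5 genes passed the test across all genes. In edgeR's quasi-likelihood test on sums per library (5510 genes), 5 genes passed at an adjusted p under 0.05 (0.0907%), and 242 had an unadjusted p under 0.05, none of them among the 5 transcripts. The log2 fold change, HFD over SD, was -0.62 ± 0.36 (standard error) for Cmss1 with an adjusted p of 0.943, and 0.60 ± 0.45 for Neat1 (0.945). It was -0.35 ± 0.37 for Cdk8 (0.954), -0.20 ± 0.26 for Gm42418 (0.959) and -0.04 ± 0.30 for Malat1 (0.996). Without HFD replicate 2, which leaves HFD replicate 1 as the only HFD library and assumes that it varies like the others, Gm42418 stood at 0.12 and Cdk8 at 0.06. The difference in their shares stayed negative whichever library was left out, at -2.15 to -1.11 percentage points for Gm42418 and -0.212 to -0.0953 for Cdk8.

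Within cluster 0, which takes other cell types out of the comparison, 2 libraries per diet held at least 10 cells. Neat1 took 0.0502% and 0.0438% of UMIs in SD replicates 1 and 2, and 0.0782% and 0.106% in HFD replicates 1 and 2. Cmss1 took 0.468% and 0.613% on SD and 0.428% and 0.312% on HFD. In both genes the diets did not overlap. The log2 fold change was 0.90 ± 0.32 for Neat1 (unadjusted p 0.0161) and -0.59 ± 0.22 for Cmss1 (0.0201), each with an edgeR adjusted p of 0.758 over 2108 genes, so neither passed. Malat1 stood at 0.22 ± 0.16, Gm42418 at -0.12 ± 0.15 and Cdk8 at -0.43 ± 0.25. Ribosomal protein mRNAs had a negative fold change in 79 of 79 tested (median -0.33, 45 lower without overlap), and took 21.3% and 19.1% of UMIs on SD and 15.5% and 18.6% on HFD. The fold change was also negative in 11 of 12 mitochondrially encoded genes and 9 of 12 abundant cytoplasmic mRNAs, and none of the 3 lists had a member past the threshold. Their part in the values of Neat1 and Cmss1 was not tested. In this cluster 1 gene passed (0.0474%), and 15.7% of genes were lower without overlap and 21.9% higher, beside Cmss1 among the lower and Neat1 and Malat1 among the higher. Within cluster 2 (1019 genes, 3 SD and 2 HFD libraries) no gene passed, whether by edgeR (0%) or by DESeq2, while 16 reached an unadjusted p under 0.05. There the log2 fold change was -0.33 ± 0.25 for Gm42418, -0.34 ± 0.31 for Cmss1, -0.46 ± 0.35 for Cdk8, 0.27 ± 0.50 for Neat1 and -0.04 ± 0.27 for Malat1. The diets overlapped for all 5, while 7.75% of genes were lower and 10.3% higher without overlap.

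Genes that work with these transcripts were counted in lists over all cells, and no list member passed in either direction, in edgeR. Of the nuclear speckle and splicing factors, where Malat1 resides, 12 of 12 were tested, with a median log2 fold change of 0.19 against 0.02 over all genes. Srsf1, a splicing factor, stood at -0.97 ± 0.61 and Srsf3 at 0.60 ± 0.49. Of the paraspeckle proteins that bind Neat1, 11 of 12 were tested, with a median of 0.01. Ewsr1 stood at 1.03 ± 0.58 and Sfpq, a core paraspeckle protein, at 0.58 ± 0.55. Of the Mediator kinase module, to which Cdk8 belongs, 4 of 7 were tested. Cdk19, the paralog of Cdk8, stood at 0.74 ± 0.77 and Med13l at 0.39 ± 0.50, in the direction opposite to Cdk8. Of the ribosome biogenesis list that holds Cmss1, 10 of 16 were tested, with a median of -0.05. Nop56 stood at -0.94 ± 0.69 and Ncl, nucleolin, at 0.44 ± 0.49. Of the nuclear-retained noncoding RNAs, 6 of 14 were tested, and Mir100hg stood at -1.73 ± 0.66 (unadjusted p 0.0230, adjusted 0.943). Of 10 genes linked with Gm42418 by name, 6 had a negative and 4 a positive fold change, with a median of -0.07. Lower without overlap were 4, Gm42418, Cmss1, Cdk8 and Camk1d, against 12% of all genes. The 4 with a positive fold change, Zc3h7a, Jarid2, Gm26917 and Filip1l, had 49 to 168 UMIs each. Gphn and Gm19951, which followed Gm42418 across cells, are not in this list. Zc3h7a stood at 1.90 ± 0.71 on 49 UMIs in all (unadjusted p 0.0215, adjusted 0.943).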

How the data were processed

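The authors deposited raw UMI counts per gene and cell barcode, and a table with the library, cluster and percent of mitochondrial UMIs of each barcode. Per the submitters' processing notes, Cell Ranger 3.1.0 and the build mm10 were used, and libraries followed the 10x single cell 3′ chemistry, per the labels' protocols. Doublets were not called here. For the filtering of cells before deposit, no rule is stated in the labels. The control libraries of the tables were taken as SD, since HFD is the other diet in both the tables and the labels. The labels do not say whether samples came from separate or pooled animals. The p-values therefore reflect only how far these samples spread, which may be technical.

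The 5 genes, the gene lists, the tests and the naming rule were chosen with earlier results of these data known. The rule named the 5 genes, the members with the lowest p of every list over all cells (3 at most), and the 8 genes most like Malat1 and Gm42418. Not every gene it selects is printed. Genes, cells and contrasts outside it were chosen after their values were seen. Mitochondrially encoded genes (13 of 13 tested, median log2 fold change 0.17), abundant cytoplasmic mRNAs (12 of 12, 0.34) and ribosomal proteins (80 of 83, 0.34) had no member past the threshold over all cells.

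Shares are UMIs of a gene over all UMIs of the same cells, as a percent, not divided by length. Counts were summed per library, or per library and cluster, and tested by the robust quasi-likelihood method of edgeR 4.0.16 (R 4.3.3), with TMM scaling, the filterByExpr filter, diet as the only term and Benjamini-Hochberg adjustment at 0.05, after a trial on simulated data. Standard errors are the log2 fold change over the square root of F. Library shares were compared with a two-sided exact permutation test. Correlations across cells are Spearman's rho of shares in cells of at least 1000 UMIs, or in all cells for depth and mitochondrial percent. Within library and cluster, log2 shares with 0.5 added to each count were used, minus the mean of each group of at least 5 cells. Genes compared over sums had at least 100 UMIs. Intervals of shares are exact 95% binomial intervals, and like the limits from 3 counts they cover counting error only. Sequences are from GENCODE vM21 on GRCm38.

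The alternatives changed the scaling (RLE), the tool (DESeq2 1.42.0), the filter, the terms (replicate number as a block, or project number of the library folders), the library size (without the 5 genes), the depth limits, thinning, and medians in place of sums. Others left out each replicate, the cells led by neutrophil, haemoglobin or mast cell genes (for some results an alternative added after the data were seen), or the barcodes with a shared ending.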

Additional observations from a re-analysis of the deposited data

How the results depend on the processing

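None of the 5 genes passed the threshold of any diet test under any alternative tried, and the counts of genes called were unstable. Over all cells 5 genes passed, against 9 in DESeq2, 47 with no filter on low counts, 57 with the project number as a term, 8 without the barcodes that share an ending and 0 without the cells led by neutrophil, haemoglobin or mast cell genes. In cluster 0 the count was 1, against 4 with no filter. In cluster 2 it was 0, against 2 with no filter and 1 with the project number. Leaving out each replicate in turn gave 0 to 54 genes over all cells (54 without HFD replicate 2, 0 without SD replicate 1), 2 to 26 in cluster 0 and 0 to 4 in cluster 2. With the replicate number as a block the counts were 64, 5 and 2. The deviations of same-numbered samples correlated at 0.282 for number 1 and -0.0865 for number 2, and the labels give no shared source, so the numbers were not taken as pairs. The log2 fold change of Malat1 changed sign over all cells, at 0.10 with no filter, 0.0584 with the project number, and from -0.25 to 0.0766 as replicates were left out. In cluster 2 it was 0.10 with the project number and from -0.29 to 0.12 as replicates were left out. That of Gm42418 in cluster 0 was 0.0132 with no filter, 0.00926 with the project number, 0.00245 with at least 3 cells per library and -0.25 to 0.0161 as replicates were left out. Over all cells, leaving out replicates gave -0.45 to 0.12 for Gm42418 and -0.76 to 0.0574 for Cdk8. The diet difference of the Malat1 share turned from -0.314 percentage points to 0.543 with medians over cells and 0.323 as a mean over clusters 0, 1 and 2. The correlation of Cdk8 with Gm42418 was 0.524 after thinning, and that of Malat1 with depth 0.225 within library and cluster. With medians over cells the Malat1 share was 0.651%, 0.370% and 2.42% in clusters 0, 1 and 4, Neat1 was 0.00761% and 0.0127% in clusters 0 and 1, and Cmss1 0% in cluster 3. Without the shared-ending barcodes 1 library, HFD replicate 2, kept 3 cells in cluster 3, with 3.08% Malat1 and 0.0631% Neat1. The cause of these shifts was not tested. Leaving out each library kept rho with Gm42418 at 0.722 to 0.748 for Cmss1 and 0.651 to 0.674 for Cdk8, and the UMIs per 100 Gm42418 UMIs, as means over libraries, at 9.89 to 10.99 and 6.59 to 6.97. Few counts limit Filip1l (88 UMIs) and Zc3h7a (49).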
